A study of Mus musculus with 9 samples.

Results

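The comparison described here is between stroke cortex treated with a control oligonucleotide and sham cortex, and it uses 6 of the 9 libraries of the study, 3 in each group. The animals were C57BL/6N males aged 9 to 12 weeks, and cerebral cortex was sampled throughout. In the control oligo group, a negative control locked nucleic acid (LNA) antisense oligonucleotide was given through the lateral ventricles, the middle cerebral artery was closed with a filament for 1 h (MCAO, a model of ischemic stroke), and the infarcted cortex on the same side was taken after 6 h of reperfusion. Sham mice had the neck incision with no filament and, as far as the labels say, no oligonucleotide. The labels take the sham libraries from data that the group had produced before. The other group of the series, a knockdown of an enhancer RNA before MCAO, entered only 1 alternative fit. The labels give cohorts of 3 mice but do not tie a library to an animal, so the p-values measure the spread between these libraries, which may be technical in part.

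Adult cortex is built of excitatory and inhibitory neurons, glia and vessels, and neurons express many very long genes for adhesion, signalling and channels. One gene can yield several transcripts (isoforms) that differ in where transcription begins, which exons are joined and where the RNA ends. Early after ischemia, cells change both how much of a gene is transcribed and which start site or exon is used, and the second kind of change is not visible in a sum over the gene. The description below therefore covers functional groups outside the usual stress and inflammation genes, and then single isoforms.

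Levels are given as rescaled TPM: the deposited TPM (transcript abundance scaled to the library total), summed over the transcripts of a gene, without mitochondrial, small structural RNA, microRNA and histone symbols, brought to a common total and then to a common median ratio. The symbols left out took 25.04 to 29.1% of the deposited TPM in the control oligo libraries and 41.2 to 45.8% in the sham libraries. The most frequent number of aligned bases per fragment on single-exon transcripts was 282 in each control oligo library and 51 in each sham library. Aligned bases on transcripts came to 4478 to 4916 Mb in the control oligo libraries and 2702 to 2875 Mb in the sham libraries. The data set and the aligned bases per fragment thus differ between the groups in the same way as surgery does. As far as the labels say, so does the oligonucleotide given through the lateral ventricles. The effects of all of these cannot be told apart. Markers of excitatory cortical neurons were present in every library, with a summed level of 1996 to 2192 in the control oligo group and 1391 to 1449 in the sham group. Summed neutrophil markers (4 of 8 kept, 3 called higher) were 388, 34.4 and 447 in control oligo replicates 1, 2 and 3 and at most 15.2 in sham. Ly6g, a neutrophil surface marker, was at 0 in control oligo replicate 2 and in every sham library. Striatal markers (7 of 8 kept, 4 called higher, 1 lower) summed to 293 to 417 against 169 to 180, and meningeal markers (8 of 8 kept, 3 higher, 1 lower) to 1380 to 2882 against 953 to 1098. Ptgds, a prostaglandin D synthase, made 93.4 to 96.6% of the meningeal sum, and the other 7 summed to 121, 64.5 and 97.1 in the stroke libraries and 70.5, 59.9 and 60.4 in sham, so that the groups overlapped without it. In bulk tissue, fewer cells of a type and less RNA per cell cannot be told apart.

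Of 17440 genes kept (rescaled TPM reaching 1 in 3 or more of the 6 libraries), 4708 (27.0%) were higher and 5162 (29.6%) lower in the control oligo stroke cortex at a Benjamini-Hochberg adjusted p under 0.05 (limma-trend on log2(rescaled TPM + 1), two-sided). Calls in either direction came to 56.6%, and the groups did not overlap in 11275 genes (64.7%). This balance depended on the scaling: with the common total alone the calls were 6482 higher and 3690 lower, 63.7% higher in place of 47.7%, and with the deposited TPM as they stand they were 8578 higher and 2083 lower, 80.5% higher. The median change of all genes moved from 0.01 to 0.24 and 0.56 on the log2 scale with these scalings, so group medians below are best read against the median of all genes.

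The change also ran with the genomic span of a gene, the distance from its first to its last base. Protein-coding genes of up to 5 kb had a median log2 difference of 0.42 (1557 genes, 45.99% higher and 10.7% lower). Genes of 50 to 100 kb had a median of -0.19 (2016 genes), and those of 200 to 500 kb a median of -0.62 (675 genes, 7.26% higher and 58.2% lower). For this reason many functional groups are given both as measured and with a smooth trend on genomic span removed from each library. Where the text gives no such second value, the group is given as measured only. Counts of calls in a group are best read beside the 27.0% higher and 29.6% lower of all genes.

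**Figure D1:**
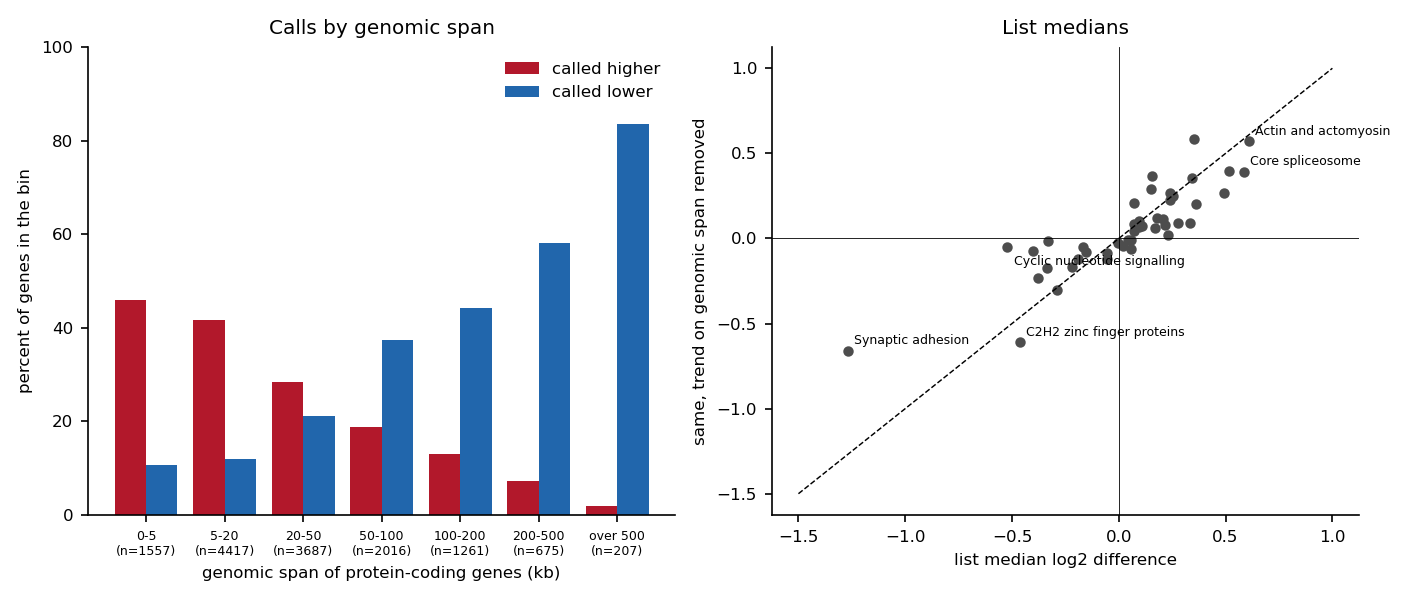
Left, percent of protein-coding genes called higher (red) or lower (blue) in control oligo MCAO against sham in bins of genomic span (kb). Right, the median log2 difference of the functional lists and symbol classes as measured (x axis) and with the trend on genomic span removed (y axis), with the dashed line of equality. The share called lower grew from 10.7% in the shortest bin to 58.2% at 200 to 500 kb and 83.6% above, and synaptic adhesion stayed lowest on both axes.

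Among genes outside the usual stress and inflammation lists, the largest increases included secreted and immune products and a transcriptional repressor. Scrt2, a neuronal zinc finger repressor, measured 35.7, 38.8 and 27.6 in control oligo replicates 1 to 3 against 1.84, 2.03 and 1.60 in sham (log2 difference 3.62). A2m, the protease inhibitor alpha-2-macroglobulin, measured 34.9, 29.0 and 21.8 against 0.96, 1.52 and 1.14 (log2 difference 3.73). Both genes were chosen for a large change without overlap of the groups, and the libraries within a group were close.

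Other large increases were uneven among the stroke libraries. Retnlg, a neutrophil product, measured 42.2, 2.74 and 34.99 in control oligo replicates 1 to 3 and is listed at 0 in every sham library. Lilrb4a, an inhibitory receptor of myeloid cells, measured 21.6, 7.49 and 18.7 against at most 0.23 in sham. Wfdc17, a myeloid secreted protein, measured 19.9, 3.98 and 18.9, and at most 0.79 in sham. Control oligo replicate 2 was lowest for these genes, as it was for the neutrophil markers, and the part of infiltrating cells in them was not tested. Ctla2a, a cathepsin inhibitor, measured 188, 95.0 and 203 against 4.28, 15.6 and 8.38. Prg4 (lubricin, a secreted proteoglycan), Tmem252, Fam221b and the fatty acid receptor Gpr84 completed the group, with log2 differences of 3.98, 3.38, 4.14 and 3.32. Gstp2, a glutathione transferase, was listed at 0 in every sham library and measured 14.2 to 19.4 in the stroke libraries, but it is a near copy of Gstp1 and reads can be split between them.

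The largest decreases included channels, an ion exchanger, adhesion molecules and a secreted protein. Slc8a1, the plasma membrane sodium/calcium exchanger NCX1, measured 11.3, 16.9 and 8.05 against 219, 220 and 237, a log2 difference of -4.17 (SE 0.23, adjusted p = 1.3e-05, limma). Arhgap5, a GTPase-activating protein, measured 16.7, 20.6 and 18.9 against 186.2, 195 and 212, a log2 difference of -3.34. Kcnh5, a voltage-gated potassium channel, measured 5.15, 4.70 and 2.46 against 85.2, 75.2 and 86.9. Lrrc17, a secreted leucine-rich repeat protein, fell from 21.6 to 32.9 in sham to at most 0.47. Ncam2, a neural adhesion molecule, measured 11.3, 13.1 and 9.57 against 121, 123 and 117. Gucy1a2 (a subunit of the nitric oxide receptor guanylyl cyclase), Plcxd3, Lnpep (an insulin-regulated aminopeptidase), Stxbp5l (tomosyn 2, a regulator of vesicle release), Xkr4, Dok6 and the sodium-activated potassium channel Kcnt2 had log2 differences between -3.96 and -3.27. Every stroke library was below every sham library in these 12 genes, which the rule of choice required. The groups did not overlap in 64.7% of all genes. Many of the 12 genes are long: Slc8a1 spans 260917 bases, Kcnh5 280113, Ncam2 423589 and Dok6 468447. Lrrc17, Arhgap5 and Lnpep are shorter, at 32346, 68004 and 96767 bases. Of all protein-coding genes of 200 to 500 kb, 58.2% were called lower. The changes of the 12 genes are given as measured, without the span trend removed.

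**Figure D2:**
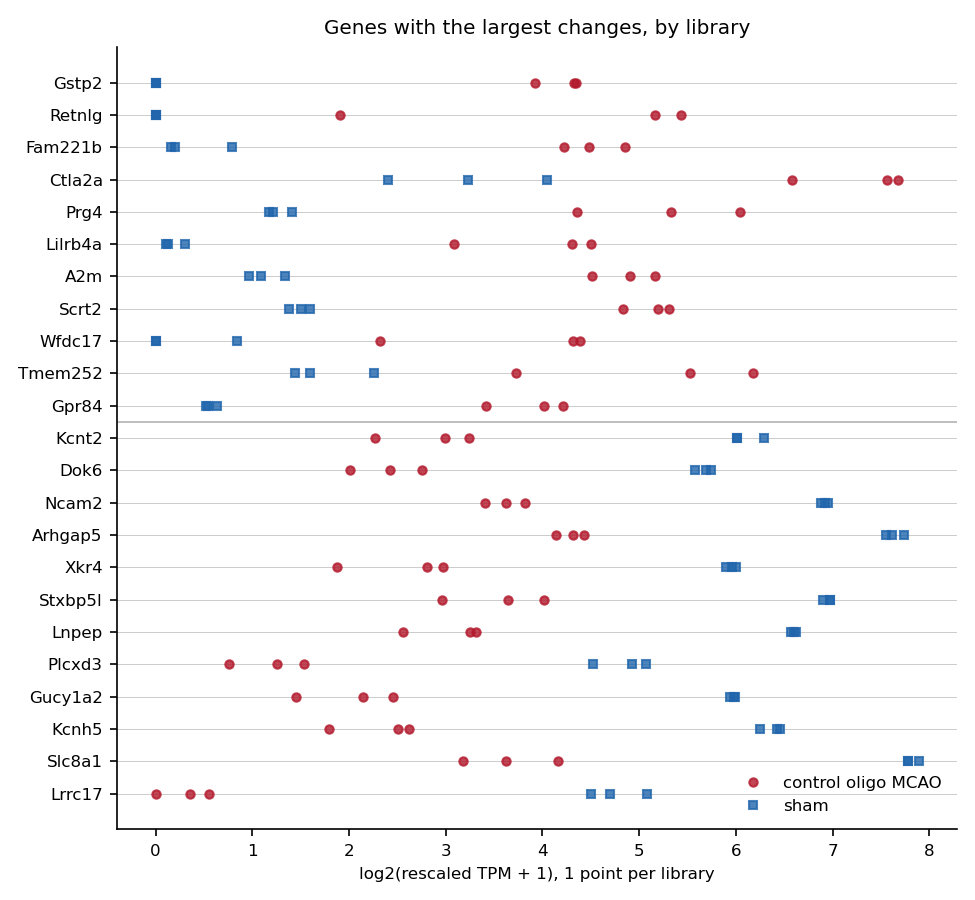
Levels of the named genes with the largest increase (top) and the largest decrease (bottom), as log2(rescaled TPM + 1), with 1 point per library (red circles, control oligo MCAO; blue squares, sham). Only genes whose groups do not overlap were eligible, and the stroke libraries spread most in Retnlg, Tmem252 and Wfdc17.

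Genes of the nuclear RNA machinery were mostly higher. Of 50 core spliceosome genes, 35 rose and 3 fell, with a median log2 difference of 0.59. Sf3b4, a subunit of the U2 particle that binds the branch site, measured 55.2, 53.6 and 50.1 against 11.1, 10.3 and 11.8 (log2 difference 2.16, SE 0.11). U2af1, which recognises the 3' splice site, measured 120, 124 and 113 against 39.5, 38.5 and 46.9. The Sm core proteins Snrpd3 and Snrpd1 rose by 1.11 and 0.87 on the log2 scale. With the span trend removed, 22 of the 50 were higher and 3 lower, with a median of 0.39.

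Of 50 ribosome biogenesis genes, 28 rose and 2 fell (median 0.49; 19 and 2 with the span trend removed). Fbl, the methyltransferase of box C/D small nucleolar particles, measured 87.0, 108 and 93.8 against 18.8, 17.0 and 20.6. Gar1, a protein of the H/ACA particles that guide pseudouridylation, measured 72.7, 55.7 and 57.9 against 10.99, 17.7 and 15.5. The nucleolar proteins Ncl and Npm1 rose by 1.13 and 0.92. The groups lay apart in these 4 genes, which were named for the smallest p in the list. Among 55 RNA polymerase II and Mediator genes, 26 rose and 12 fell (median 0.33), which became 17 and 14 with the span trend removed. The Mediator subunits Med10 and Med15 and the polymerase subunit Polr2c rose by 1.79, 1.35 and 1.26, while Med12l fell by 2.18. Of 16 polyamine genes, 8 rose and 2 fell (median 0.52). Srm, which makes spermidine, rose by 0.93, Sat1, which acetylates polyamines for their removal, by 1.62, and Eif5a, the translation factor that carries the spermidine-derived residue hypusine, by 1.00.

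Not every RNA group moved this way. RNA helicases (11 higher and 7 lower of 50), RNA modification enzymes (8 and 7 of 35) and RBM-named proteins (7 and 8 of 36) had fewer members higher than the 27.0% of all genes, and medians of 0.10, 0.07 and -0.06. Rbm3, a cold-inducible RNA-binding protein, stood out in the last with 263, 190 and 205 against 69.0, 74.1 and 54.5 (log2 difference 1.72). Adarb1 and Adarb2, of the family of adenosine-to-inosine editing enzymes, fell by 1.02 and 1.59.

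Actin genes formed the group with the highest median. Of 56 actin and actomyosin genes, 38 rose and 5 fell (median 0.61), and the count hardly moved with the span trend removed (37 and 5, median 0.57). Tagln2, an actin-binding protein of motile cells, measured 35.7, 32.1 and 46.7 against 4.94, 4.92 and 5.17 (log2 difference 2.69, SE 0.16). Arpc2, a subunit of the Arp2/3 complex that branches actin filaments, measured 421, 403 and 390 against 182, 180 and 177. Cotl1 and Pdlim1, 2 further actin-binding proteins, rose by 1.31 and 1.67. All of these were higher in 3 of 3 stroke libraries, but they were named for the smallest p in the list.

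Matrix and adhesion genes were split. Of 63 extracellular matrix genes, 22 rose and 15 fell (median 0.35), and 32 rose and 9 fell with the span trend removed. The basement membrane collagens Col4a1 and Col4a2 rose by 1.12 and 1.29, and Spp1 (osteopontin) measured 84.9, 62.2 and 125 against 10.4, 16.5 and 9.53. Among 23 integrins and their partners, 6 (26.1%) rose and 8 (34.8%) fell, near the 27.0% and 29.6% of all genes. Itga5, the alpha subunit of the fibronectin receptor, measured 12.2, 8.31 and 13.99 against 0.72, 0.71 and 0.80, while Itgb8 and the adaptor Tln2 fell by 1.73 and 1.68. Summed meningeal markers were higher in every stroke library with Ptgds and overlapped without it, and of the fibroblast collagens Col1a1 and Col1a2 neither passed (log2 differences -0.01 and -0.24). Their part in the matrix genes was not tested.

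Of 50 lysosomal genes, 25 rose and 3 fell (median 0.36; 15 and 2 with the span trend removed). Cd63, a tetraspanin of late endosomes and lysosomes, measured 172, 133 and 206 against 21.2, 28.5 and 25.6. The cathepsins Ctsz and Ctsd rose by 1.57 and 0.92, and the sorting receptor Sort1 fell by 1.12. In all 3 of the genes that rose, the lowest stroke library was above the highest sham library, as their choice by smallest p makes likely. Of 54 Rab GTPases, which direct vesicle traffic, 21 rose and 10 fell, with Rab7 of late endosomes higher (log2 difference 0.94) and Rab27b and Rab3c of regulated secretion lower (-1.37 and -1.05). The 18 V-ATPase genes had 4 (22.2%) in each direction, and the 41 autophagy genes 13 higher (31.7%) and 8 lower (19.5%).

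Genes of synaptic adhesion were the group with the lowest median. Of 62 such genes, 46 fell and 5 rose, and the median log2 difference was -1.27. Nlgn1 (neuroligin 1, at chr3:25426215-26332460, GRCm38), a postsynaptic partner of neurexins, measured 12.9, 8.32 and 7.72 against 89.7, 101 and 90.6 (log2 difference -3.18, SE 0.19). Cadm2, a synaptic immunoglobulin adhesion molecule, measured 42.6, 42.8 and 32.9 against 161, 157 and 166. Cdh12, a neuronal cadherin, and C1ql3, a secreted synaptic organiser, fell by 2.50 and 1.73. These genes are long, with a median span of 158 kb, and with the span trend removed 35 were lower and 8 higher, with a median of -0.66. Their median was lower than that of all genes under each of the 3 scalings. The summed markers of excitatory neurons (4 of 8 higher, 2 lower) were higher in every stroke library than in any sham library, but without Camk2a they were 957 to 1112 against 934 to 1034 and overlapped. Their part in this group was not tested.

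C2H2 zinc finger genes were also lower, and these genes were not long. This class holds most of the DNA-binding repressors that silence repeats, among many other factors. Of 432 kept, 215 fell (49.8%) and 58 rose (13.4%), with a median of -0.46. Their median span was 17.1 kb, and with the span trend removed 237 were lower and 44 higher, with a median of -0.61. Zkscan16 measured 4.95, 5.80 and 4.90 against 40.4, 47.8 and 47.7 (log2 difference -2.90, SE 0.14). Zfp442 and Zfp966 fell by 2.25 and 2.10. Zfp385a, an RNA-binding member, went the other way with 69.0, 72.1 and 71.1 against 14.1, 12.2 and 13.7. With the deposited TPM as they stand, 120 were higher and 83 lower and the class median was 0.06, still 0.50 below that of all genes.

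Several signalling groups were lower as measured and near the median of all genes once the span trend was removed. Of 37 cyclic nucleotide genes, 19 fell and 5 rose (median -0.52), which became 9 and 8 (median -0.05). Adcy1, a calcium-stimulated adenylyl cyclase, measured 99.1, 99.5 and 93.7 against 281, 294 and 346. Pde4d, a cyclic AMP phosphodiesterase, fell by 1.72 and was no longer called with the span trend removed (-0.39). Pde5a, which degrades cyclic GMP, fell by 1.92. Of 49 phosphoinositide and store calcium genes, 20 fell and 12 rose (median -0.33), which became 16 and 15. Itpr1, the receptor that releases calcium from stores, measured 145, 133 and 121 against 477, 494 and 470 and fell by 1.85, as Plcb1, Dgkb and Dgki did by 1.62, 1.74 and 2.76. Of 64 axon guidance genes, 26 fell and 9 rose (median -0.17), which became 18 and 12. The receptors Epha4, Robo2 and Dcc fell by 1.70, 1.64 and 2.24, and the ligand Efna3 rose by 1.39. Their spans were 147904, 519520, 1092332 and 9067 bases, in this order. Apart from Pde4d, the single genes of these groups are given as measured only. Of 42 cortical transcription factors, 20 fell and 10 rose (median -0.40), which became 14 and 9. Zeb2, a repressor of neuronal and glial development, measured 30.8, 31.4 and 26.8 against 126, 126 and 130, and the layer 4 factor Rorb 11.4, 11.7 and 8.70 against 48.9, 48.5 and 54.0.

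Neuromodulator receptors, whose genes are shorter (median span 18.4 kb), kept their balance: 18 of 45 fell and 12 rose as measured (median -0.29), and 17 and 10 with the span trend removed. Chrm3, the muscarinic M3 receptor, measured 28.0, 25.6 and 23.0 against 84.0, 86.1 and 97.6. Htr2a, the serotonin 2A receptor, measured 6.61, 4.27 and 5.44 against 42.4, 44.7 and 28.6. Oprm1, the mu opioid receptor, fell from 5.45 to 6.03 in sham to at most 0.38, and Adra1a, an alpha-1 adrenergic receptor, fell by 1.99. Every stroke library lay below every sham library for these 4 receptors. They were named for the smallest p in the list, so this separation follows from the choice.

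Ubiquitin ligases and deubiquitinases were lower in 29 and higher in 6 of 63 (median -0.38; 28 and 11 with the span trend removed). Usp9x, a deubiquitinase with many neuronal substrates, measured 54.2, 53.8 and 37.6 against 257, 260 and 196, and the ligase Itch fell by 1.43. Rnf10 was an exception, with 178, 157 and 160 against 68.3, 71.4 and 69.1. Histone methylation enzymes were lower in 17 and higher in 9 of 44. The H3K27 demethylase Kdm6b measured 18.4, 14.2 and 16.4 against 2.66, 1.78 and 2.45, and the H3K79 methyltransferase Dot1l rose by 2.08, while Nsd1 and Kmt2c fell by 1.77 and 1.31. Among 43 kinesin and dynein genes, 17 fell and 11 rose. Dync1h1, the heavy chain of cytoplasmic dynein, measured 86.4, 91.6 and 73.5 against 266, 271 and 270. DNA repair genes were lower in 14 of 51 (27.5%, beside the 29.6% of all genes) and higher in 6 (11.8%, beside 27.0%), with the damage kinases Atm, Atr and Prkdc lower by 2.26, 1.47 and 1.68 on the log2 scale.

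**Figure D3:**
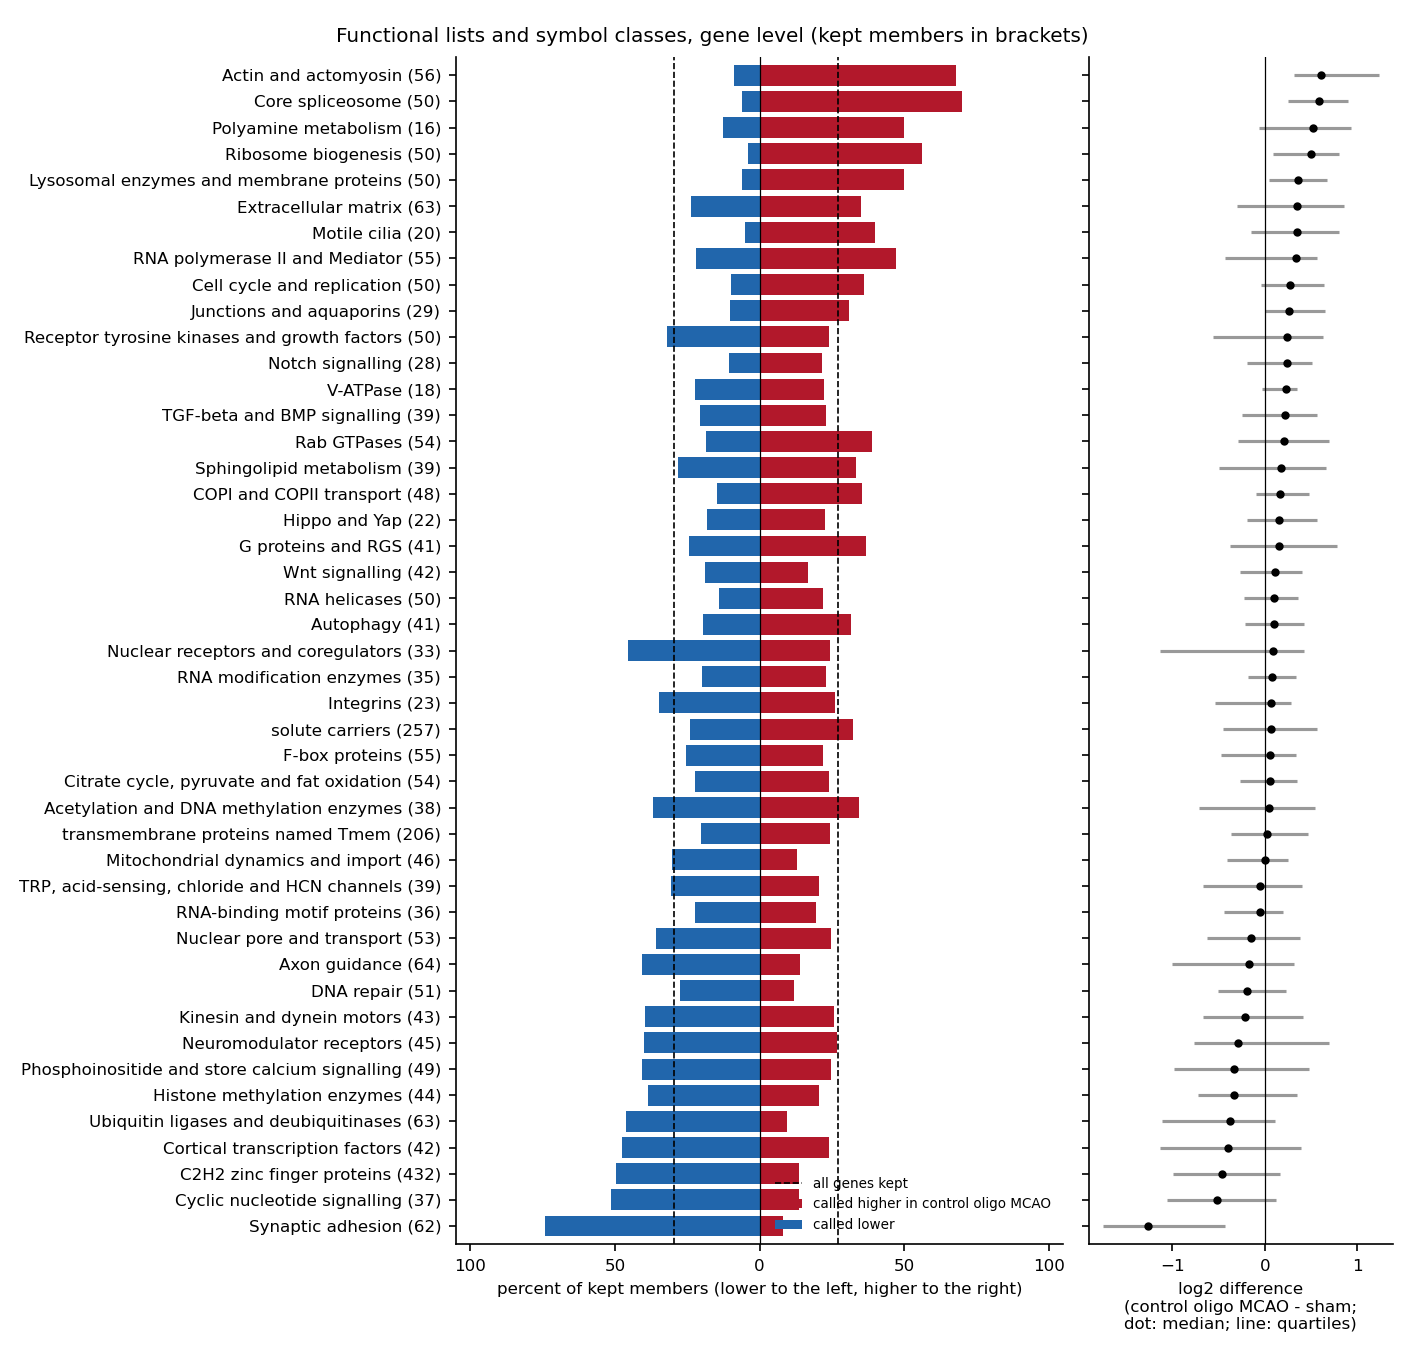
Left, percent of kept members of the lists and classes called higher (red, to the right) or lower (blue, to the left) in control oligo MCAO against sham, with dashed lines at the 27.0% and 29.6% of all genes. Right, the median (dot) and quartiles (line) of the members' log2 differences. Actin, spliceosome, polyamine and ribosome biogenesis genes stand at the top, and synaptic adhesion, cyclic nucleotide and zinc finger genes at the bottom.

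Further groups are set beside the 27.0% of all genes called higher and the 29.6% called lower. Cell cycle and replication genes were higher in 18 and lower in 5 of 50, which became 8 and 3 with the span trend removed. Cenpa, the centromeric histone H3 variant, measured 19.3, 12.5 and 14.4 against 1.94, 2.69 and 2.27. Motile cilia genes were higher in 8 and lower in 1 of 20 (median 0.34). The choroid plexus and ependyma markers summed to 20.6 to 26.4 in the stroke libraries against 8.62 to 11.9 in sham (4 of 8 kept, 2 higher, with Folr1, Clic6 and Tmem212 under 1 in every library), and their part in the cilia genes was not tested. Among 54 genes of the citrate cycle, pyruvate and fat oxidation, 13 rose and 12 fell. Pdk4, a kinase that shuts off pyruvate dehydrogenase, measured 33.7, 18.7 and 20.2 against 4.86, 4.54 and 4.84, and its relative Pdk2 rose by 1.25. Of 46 mitochondrial dynamics and import genes, 14 fell and 6 rose, and the inner membrane fusion factor Opa1 measured 44.5, 48.4 and 42.3 against 117, 125 and 124.

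Single members moved strongly within mixed groups, whose counts stand beside 27.0% higher and 29.6% lower of all genes. Among 41 G protein and RGS genes (15 higher, 10 lower), Rgs16, which ends G protein signals, measured 65.8, 53.1 and 48.4 against 7.86, 5.63 and 7.32. Among 257 solute carriers (83 higher, 62 lower), Slc3a2, the heavy chain of amino acid exchangers, measured 255, 252 and 258 against 78.8, 76.4 and 74.6, and the potassium-dependent sodium/calcium exchanger Slc24a2 fell by 1.89. Among 42 Wnt genes (7 higher, 8 lower), the receptor Fzd3 measured 18.7, 17.9 and 15.4 against 79.0, 76.3 and 85.1. Among 39 TGF-beta and BMP genes (9 and 8), Tgfb1 measured 8.72, 7.68 and 19.1 against 1.11, 0.47 and 1.01, and the receptor Bmpr2 fell by 1.69. Among 50 receptor tyrosine kinase and growth factor genes (12 and 16), Pdgfb, Hbegf and Fgfr1 rose by 1.41, 1.27 and 1.32. Among 39 TRP, acid-sensing, chloride and HCN channels (8 and 12), the cation channel Trpc5 fell by 2.45. The counts of the other lists were 13 higher and 14 lower of 38 acetylation and DNA methylation enzymes, 17 and 7 of 48 coat protein genes, 5 and 4 of 22 Hippo genes, 9 and 3 of 29 junction genes, 6 and 3 of 28 Notch genes, 13 and 19 of 53 nuclear pore genes, 8 and 15 of 33 nuclear receptors and coregulators, 13 and 11 of 39 sphingolipid genes, 12 and 14 of 55 F-box proteins, and 50 and 42 of 206 genes named Tmem.

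At the level of single transcripts, 41443 were kept, of which 5623 (13.6%) were higher and 6797 (16.4%) lower in the stroke cortex. With the common total alone this balance turned round, with 7685 higher and 5038 lower. Of 7704 retained-intron transcripts, 1055 were higher (13.7%, close to all transcripts) and 893 lower (11.6%, a smaller share than the 16.4% of all transcripts). Their share in the TPM of protein-coding genes was 6.32, 7.20 and 5.43% in control oligo replicates 1 to 3 and 7.61, 6.91 and 6.54% in sham, and the ranges overlapped. Transcripts marked for nonsense-mediated decay took 2.24 to 2.51% in stroke and 2.74 to 2.90% in sham. Of 8467 genes with at least 2 transcripts kept, 657 (7.76%) had 1 transcript called higher and another called lower. The gene sum was not called in 278 of these.

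The share of each transcript in its gene was tested in 7822 genes with 29374 transcripts. A share was called at an adjusted p under 0.05 and a difference of at least 20 percentage points. By this rule 1094 shares (3.72%) were called in 764 genes (9.77%). In 216 genes (2.76%) the leading transcript itself switched, with a gaining and a losing transcript both called. The 2 leading transcripts could be laid over the annotation in 215 of them. They began at different sites (more than 50 bases apart) but ended alike in 50 genes, ended differently from the same start in 35, did both in 101 and neither in 29. The coding exons were the same in 41, different in 119, present in 1 of the 2 only in 49 and absent from both in 6. A protein-coding leader was replaced by another type in 23 genes and the reverse held in 43. The gene level was higher in 61 of the 215, lower in 77 and not called in 77. Among all genes kept, 27.0% were higher and 29.6% lower. The aligned bases per fragment (282 against 51) differed between the same groups, and their part in the switches was not tested.

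A panel of 50 genes with well-known isoforms held 46 that could be tested, of which 11 (23.9%) had a called share. Among all 7822 genes tested, 764 (9.77%) had one. The panel was written with earlier results of these data known, so its 23.9% is given as a description.

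Rcan1, at chr16:92391953-92466146 on the minus strand (GRCm38), encodes an inhibitor of the calcium-activated phosphatase calcineurin. It has 2 start sites, and the downstream one yields a short form that is known to be induced by calcineurin and its factor NFAT. The short transcript Rcan1-201 made 70.7, 54.6 and 73.6% of Rcan1 in the control oligo libraries and 14.9, 17.4 and 8.7% in sham. Its level was 94.1, 59.7 and 89.3 against 8.19, 9.31 and 4.84, a log2 difference of 3.29 (adjusted p = 0.0010, limma). The long transcript Rcan1-202 did not pass, at 39.0, 49.5 and 32.0 against 47.0, 44.1 and 51.0 (adjusted p = 0.35). The gene sum rose by 1.13 on the log2 scale, and of the 2 transcripts only the short one was called higher.

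The forms differ in their first coding exon, shown here because the exon tells them apart. They are taken from GENCODE M21 transcripts (GRCm38), with the start codon in capitals. The exon of Rcan1-201 lies at chr16:92399896-92399982 and that of Rcan1-202 at chr16:92465833-92466078.
Rcan1-201 first coding exon: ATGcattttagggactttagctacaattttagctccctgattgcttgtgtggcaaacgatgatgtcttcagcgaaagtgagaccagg
Rcan1-202 first coding exon: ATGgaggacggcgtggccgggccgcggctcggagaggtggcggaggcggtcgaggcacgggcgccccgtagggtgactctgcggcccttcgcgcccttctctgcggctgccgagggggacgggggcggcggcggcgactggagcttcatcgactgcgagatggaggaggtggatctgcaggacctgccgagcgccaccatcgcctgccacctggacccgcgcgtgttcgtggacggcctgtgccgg

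The 2 start sites have separate promoter windows in RefSeq (GRCm38.p6, 250 bases before to 50 after the start, minus strand), at chr16:92400029-92400328 for Rcan1-201 and chr16:92466120-92466419 for Rcan1-202. They are printed because only the first of the 2 starts gained. Capitals mark matches on either strand to GGAAA (the core of NFAT sites), TGACGTCA (a cyclic AMP response element) and TGANTCA (an AP-1 site).
Rcan1-201 promoter: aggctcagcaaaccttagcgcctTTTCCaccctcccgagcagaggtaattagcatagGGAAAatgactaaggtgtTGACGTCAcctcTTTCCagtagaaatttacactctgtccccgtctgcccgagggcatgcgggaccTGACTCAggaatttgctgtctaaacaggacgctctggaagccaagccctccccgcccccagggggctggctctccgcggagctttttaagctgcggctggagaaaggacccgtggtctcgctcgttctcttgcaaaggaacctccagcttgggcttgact
Rcan1-202 promoter: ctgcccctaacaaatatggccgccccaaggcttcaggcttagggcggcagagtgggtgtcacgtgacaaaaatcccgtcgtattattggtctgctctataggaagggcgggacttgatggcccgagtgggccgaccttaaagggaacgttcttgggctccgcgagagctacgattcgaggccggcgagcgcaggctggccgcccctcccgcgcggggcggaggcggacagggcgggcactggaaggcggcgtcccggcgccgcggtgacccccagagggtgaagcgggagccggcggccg
The window of Rcan1-201 held 3 matches to GGAAA, 1 to TGACGTCA and 1 to TGANTCA, and that of Rcan1-202 held none of the 3 motifs. Of 32851 RefSeq promoter windows of this length, 61.3% held GGAAA at least once and 9.42% at least 3 times, 1.79% held TGACGTCA and 7.81% held TGANTCA. Windows of Dclk1, Pde4b, Ntrk2 and Bag1 were scanned as well. That of Dclk1-202, a transcript that also gained, held 0 matches to GGAAA and 2 to TGANTCA. The Bag1 window held 3 matches to GGAAA and lies at the starts of both Bag1-204, which gained, and Bag1-201, which lost. All of these are matches of letters and say nothing of binding in this tissue.

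Ntrk2, at chr13:58806569-59133970, encodes TrkB, the receptor for the neurotrophin BDNF, and makes a full-length form with a kinase domain and a truncated form without one. The full-length transcript Ntrk2-201 made 34.9, 44.1 and 33.6% of the gene in stroke and 70.5, 65.9 and 70.5% in sham. The truncated transcript Ntrk2-202 made 58.2, 49.6 and 55.7% against 23.9, 20.6 and 23.4%. Their order was thus opposite in the 2 groups, in every library. Levels were 73.6, 77.0 and 69.0 against at least 147 for the full-length form and 123, 86.6 and 114 against 50.9, 45.8 and 49.3 for the truncated form, with adjusted p values of 0.0011 and 0.0042 (limma). The gene sum did not pass (log2 difference -0.14, adjusted p = 0.31). The full-length loss was called in 4 of the 6 fits that left out a library, and the truncated gain in all 6. The truncated form ends its coding sequence with a short stretch that the full-length form lacks, at chr13:58932023-58932057 on the plus strand, printed as the mark of that form with no letters in capitals.
Ntrk2-202 coding end: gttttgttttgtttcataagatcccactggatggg

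Pde4b, at chr4:102087543-102607259, encodes a cyclic AMP phosphodiesterase whose forms begin at different start sites and differ in their first residues. Pde4b-207 made 77.3, 72.4 and 75.8% in stroke and 23.3, 39.0 and 31.8% in sham, and Pde4b-205 1.9, 2.5 and 1.6% against 41.6, 27.4 and 36.3%. The levels of Pde4b-207 were 111, 73.0 and 65.6 against 24.1, 40.3 and 29.0, and those of Pde4b-205 were 2.71, 2.57 and 1.41 against 43.0, 28.2 and 33.1. The gene sum showed none of this (log2 difference 0.12, adjusted p = 0.59). The loss of Pde4b-205 was called in 2 of the 6 fits without 1 library and the gain of Pde4b-207 in all 6. Their first coding stretches lie at chr4:102255221-102255456 (Pde4b-207) and chr4:102421771-102421820 (Pde4b-205), plus strand, and are printed with the start codon in capitals to show that the forms share no first exon.
Pde4b-207 first coding stretch: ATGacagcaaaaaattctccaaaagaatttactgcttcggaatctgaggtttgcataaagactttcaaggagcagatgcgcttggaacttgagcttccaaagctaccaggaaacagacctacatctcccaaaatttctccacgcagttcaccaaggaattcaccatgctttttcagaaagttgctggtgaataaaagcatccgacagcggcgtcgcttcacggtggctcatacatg
Pde4b-205 first coding stretch: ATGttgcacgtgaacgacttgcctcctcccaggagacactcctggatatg

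Tpm3, at chr3:90072649-90100902, encodes a tropomyosin, the coiled coil that lies along actin filaments. Tpm3-201 made 55.2, 50.9 and 63.4% in stroke and 28.2, 30.01 and 26.2% in sham, and Tpm3-202 made 10.2 to 13.02% against 40.9, 43.8 and 37.8%. The groups did not overlap for either transcript, and both are named because their share was called. The gain of Tpm3-201 was called in 2 of the 6 fits without 1 library and the loss of Tpm3-202 in all 6. Both have a coding length of 744 bases, and each carries an internal exon of 76 bases that the other lacks. Tpm3-202 has a further coding stretch of 79 bases of its own. These exons lie at chr3:90088401-90088476 and chr3:90089048-90089123, plus strand, and capitals mark the 37 positions at which they differ.
Tpm3-201 exon: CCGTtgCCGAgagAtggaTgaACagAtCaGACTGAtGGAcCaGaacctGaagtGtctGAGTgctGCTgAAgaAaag
Tpm3-202 exon: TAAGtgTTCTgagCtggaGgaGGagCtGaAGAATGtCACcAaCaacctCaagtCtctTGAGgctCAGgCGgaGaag

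Dclk1, at chr3:55242364-55539068, encodes a microtubule-associated kinase with a long form and shorter, kinase-only forms from an internal start. The gene sum fell by 1.43 on the log2 scale, but the short transcript Dclk1-202 measured 97.2, 106 and 93.8 against 21.7, 27.4 and 21.3 and rose from 4.1, 6.4 and 5.5% of the gene to 63.2, 58.3 and 59.5%. Dclk1-208, which begins at the same internal region (55461916 against 55461758), went from 46.8, 41.8 and 24.96% to 1.1, 0.5 and 0.1%. Its loss was called in 1 of the 6 fits without 1 library. The long Dclk1-201 fell from 89.8, 101 and 107 to 5.59, 6.19 and 11.9, and its share did not pass (adjusted p = 0.054).

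The other panel genes with a called share were Mbp, Agrn, Ank2, Dnm1, Dnm1l and Gnas. Mbp, myelin basic protein, did not pass as a gene (adjusted p = 0.050), but Mbp-210 (coding length 474 bases) went from 75.7, 73.4 and 76.3% to 5.7, 9.0 and 7.6% and Mbp-211 (384 bases) from 1.3, 2.2 and 1.1% to 53.9, 39.7 and 57.0%. Both shares were called in all 6 fits without 1 library. Agrn-207, a retained-intron transcript of the synapse organiser agrin, gained from 5.1, 3.6 and 6.5% to 39.8, 43.0 and 49.5%. Ank2-216, a single-exon retained-intron transcript of the neuronal scaffold ankyrin B, gained from 33.9 ± 0.26% (SD, n = 3) to 70.1 ± 5.4% (SD, n = 3) while the gene sum fell by 1.54. The transcript itself was lower in stroke (144, 155 and 176 against 230, 225 and 213, log2 difference -0.49), less than the gene sum. Dnm1-214 of the endocytic GTPase dynamin 1 lost 20.6 points, Dnm1l-202 of the mitochondrial fission GTPase Drp1 gained 24.8, and Gnas-201 lost 26.2. These last 3 were called in 0, 1 and 1 of the 6 fits without 1 library.

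**Figure D4:**
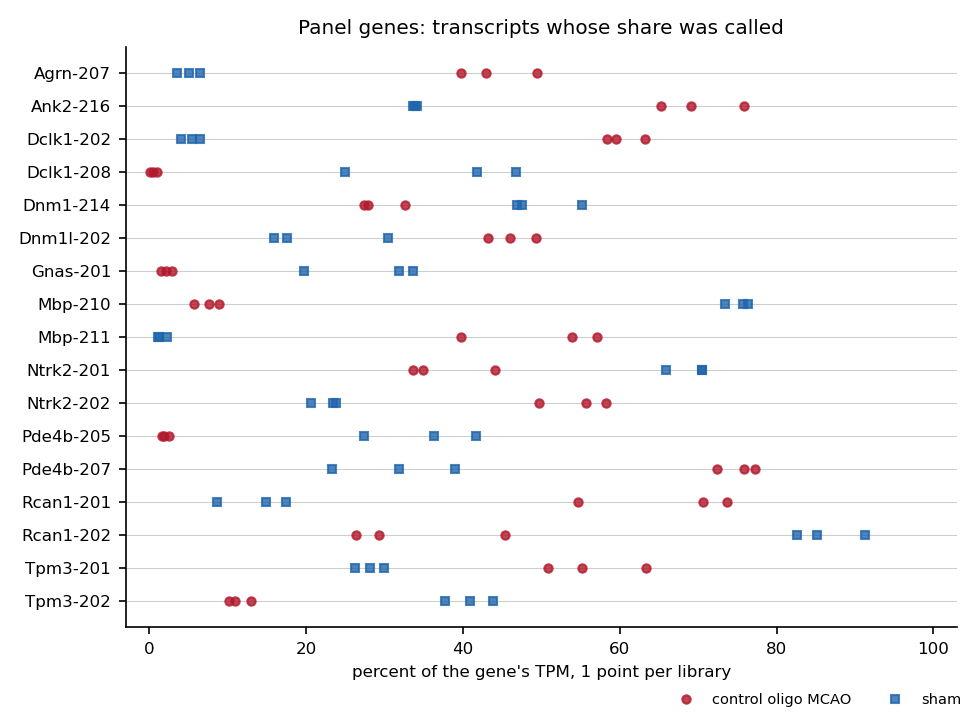
Percent of the gene's TPM taken by each of the 17 panel transcripts whose share was called, with 1 point per library (red circles, control oligo MCAO; blue squares, sham). The rows were chosen for a called share, so the groups lie apart in each, widest for Mbp-210, Dclk1-202 and Rcan1-201.

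The 12 switches with the largest gain in share, outside clone-type symbols, were in Bag1, Pdgfc, Syt14, Zfp580, Papss1, Adgrb3, Tmem63a, Taok1, Arhgap5, Rnf146, Adam9 and Ywhaz. In Bag1, a co-chaperone of Hsp70, Bag1-204 made 92.8, 95.0 and 93.8% in stroke and at most 0.8% in sham, where Bag1-201 made 92.2 to 99.4%. Both have the same coding exons and differ at the ends, and the gene sum rose by only 0.38 on the log2 scale. In Pdgfc, a platelet-derived growth factor, Pdgfc-202, which is annotated as a target of nonsense-mediated decay, made at least 90% of the gene in stroke and at most 2.8% in sham, while the coding form Pdgfc-201 went from 96.8 to 97.6% in sham to 4.0 to 9.5%. The sum of Pdgfc did not pass (log2 difference 0.48, adjusted p = 0.096), whereas Pdgfc-201 itself fell by 2.01. Pdgfc had a low level and could be tested in only 3 of the 6 fits without 1 library, where both shares were called.

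The start site differed in several of the others. In Taok1, a kinase of the stress-activated MAP kinase pathway, Taok1-202 held 80.8, 82.5 and 77.0% in sham and at most 0.3% in stroke, with levels of 89.8, 95.3 and 88.3 against at most 0.09. Taok1-201, which has the same coding exons and begins 22309 bases downstream, measured 25.8, 26.7 and 19.1 against 21.3, 20.3 and 26.3 (adjusted p = 0.82). The gene sum fell by 2.22, and of the 2 transcripts only Taok1-202 was called lower. In Arhgap5, Arhgap5-201 fell by 6.09 and Arhgap5-202 by 4.41, and Arhgap5-204, with the same coding exons as Arhgap5-201, did not pass (log2 difference 0.65, adjusted p = 0.059). In Adgrb3, an adhesion receptor of synapses, Adgrb3-201 was near 0 in sham and made 70.9, 90.3 and 92.4% in stroke, while Adgrb3-207, whose start lies 2947 bases away, went from 62.7 to 69.7% to 1.2 to 21.3%.

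Rnf146, a ligase that targets poly(ADP-ribosyl)ated proteins, kept its sum (log2 difference -0.04, adjusted p = 0.83) while its leader passed from Rnf146-205 (59.7 to 63.1% in sham, 0.0% in stroke) to Rnf146-203 (76.8 to 82.1% in stroke, at most 4.4% in sham). Ywhaz, a 14-3-3 adaptor protein, passed from Ywhaz-204 (80.4 to 82.4%) to Ywhaz-201 (86.4 to 89.9%), with the same coding exons. The coding exons differed between the leaders in the vesicle protein gene Syt14, the zinc finger gene Zfp580, the sulfate-activating enzyme gene Papss1 and the membrane protease gene Adam9. In these genes the new leader gained 87.5, 85.5, 84.9 and 75.4 points. Tmem63a, which encodes an ion channel opened by membrane stretch, kept its coding exons. Of these, Syt14, Zfp580 and Tmem63a were also low, beside the gene minimum of 5. Their mean levels were 7.10, 16.3 and 11.8 in stroke and 17.2, 5.75 and 9.18 in sham. Among the 24 leading transcripts of these 12 genes, the share ranges of stroke and sham did not overlap in any. The genes were chosen for large gains in the same libraries, so this separation adds no support.

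**Figure D5:**
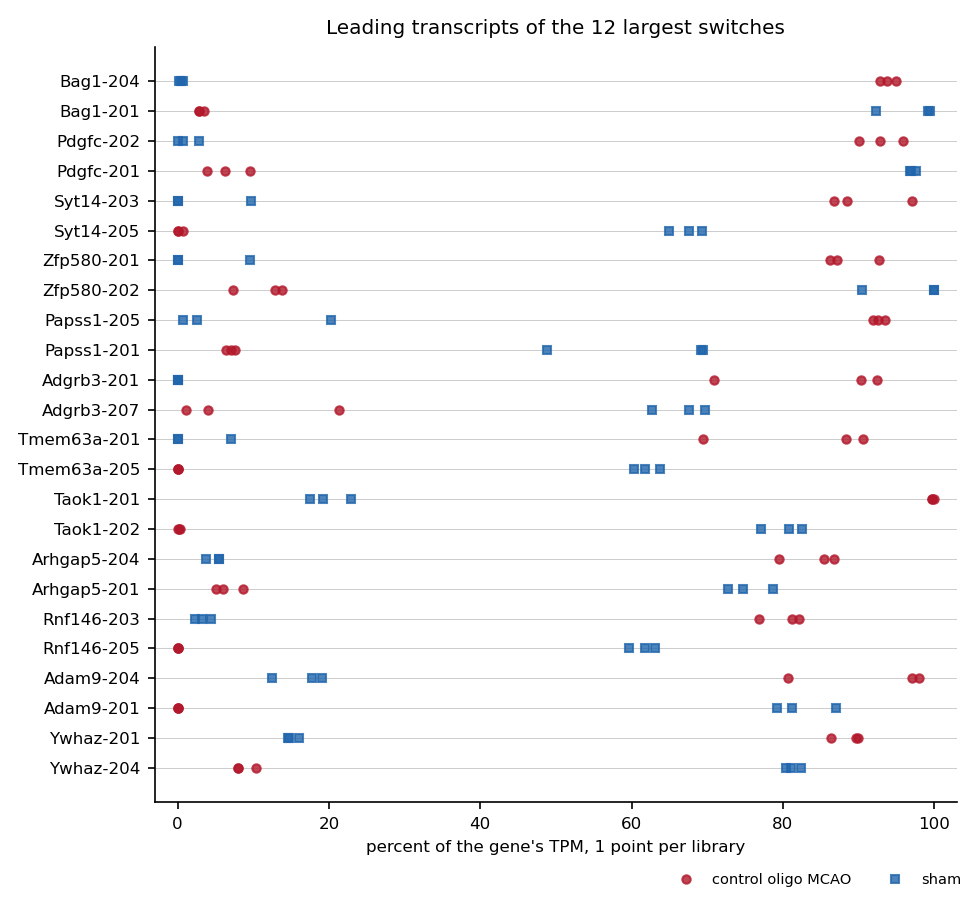
Percent of the gene's TPM taken by the leading transcript in control oligo MCAO (upper row of each gene) and by the leading transcript in sham (lower row) for the 12 largest switches, with 1 point per library (red circles, control oligo MCAO; blue squares, sham). The gains in share ranged from 93.4 points in Bag1 to 73.6 points in Ywhaz.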

How the data were processed

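Poly(A) libraries of the control oligo group were read as pairs on a NovaSeq, per the labels' protocols; for the sham samples the sources used here do not give these details. The tools named are HISAT2 2.0 and StringTie 1.3, and the build is GRCm38/mm10, per the submitters' processing notes, with StringTie given as 1.3.4d (options -e and -B, no strand option) per the file headers, so overlapping antisense genes are uncertain. The authors deposited TPM, FPKM and coverage per transcript, with other attributes in the same column (per the file headers). No counts are used here. Transcript types came from GENCODE M21, which held 99.6% of the 131100 transcripts, 97.3% with the same start and end. TPM was summed per gene, 1473 genes with the named symbol starts were left out, and the libraries were rescaled to a total of 1000000 and by median ratio.

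Genes and transcripts were fitted on log2(value + 1) with limma 3.58.1 (R 4.3.3, limma-trend, no covariate) on the 6 libraries, and shares with limma on genes with a mean of at least 5 in both groups and transcripts with a mean share of at least 5% in either group. Fold changes on this scale understate low genes. On simulated data with known changes, the gene fit recovered 49 of 100 changes of 1 and 89 of 100 of 2 (log2). The transcript fit recovered 0 and 24 of 100. The share fit recovered 45 of 100 shifts of 30 points and 72 of 100 of 50 points. Few features were changed there, so recovery in the data may differ. A transcript or share that did not pass may still have changed. The members, the 39 gene lists, 7 symbol classes, 13 marker lists and the isoform panel were chosen with earlier results of these data known. Named were the 12 largest called changes in each direction (not overlapping, protein-coding, no clone-type symbols, outside the usual stress and inflammation genes), up to 4 members per list with the smallest p, the 12 switches with the largest gain, and panel genes with a called share. Alternatives covered scaling, unit, pseudocount, filters, length trends, samples in the fit, replicate block and leaving out each library. Tables were parsed in Python 3.11.15 (pandas 2.3.3) and plotted with matplotlib 3.10.9. Some items that these rules select are not reported here.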

Additional observations from a re-analysis of the deposited data

How the results depend on the processing

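Scaling decided the balance of the gene calls: with the deposited TPM as they stand 8578 genes were higher and 2083 lower, and with no filter on low values 4568 and 6868. Leaving out each library in turn gave 3698 to 4835 genes higher and 4423 to 5149 lower, 3676 to 4848 transcripts higher and 5012 to 6123 lower, 726 to 977 shares and 147 to 202 switches, of which 113 to 138 were among the 216. The lowest transcript count came without sham replicate 2 and the lowest share count without control oligo replicate 1. Requiring a mean of at least 5 left 18697 transcripts, of which 3757 were higher and 3488 lower, so the balance turned round. Protein-coding transcripts alone gave 713 shares. On the log-odds scale 146 genes switched, 135 of them among the 216. The change of Adam10 turned from -0.59 to 0.012 with the deposited TPM as they stand, and that of Dnah5 from -1.29 to 0.23 with the trend on exonic length removed; the cause was not tested.

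Same-numbered libraries share only a number: their deviations from the group means had correlations of -0.02, -0.08 and 0.11. With the replicate number as a block, 4548 genes were higher and 4941 lower, 3759 transcripts higher and 4917 lower, and 0 shares and 0 switches were called by limma, although 2305 shares passed an unadjusted p of 0.05 with the same difference (2310 without the block). The smallest adjusted p of the named isoforms was then 0.055. Between 16389 and 17888 genes per library reached a level of 1. Depth of reads per transcript is not known from TPM, so no counting interval is given.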
